A study of Mus musculus with 576 samples.

Results

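The erythroid priming genes examined here were Gata1, Klf1, Epor, Mfsd2b, Zfpm1, Car1, Car2 and Nfe2, 8 genes known for their roles in red cell formation. They were taken by their mouse Ensembl identifiers, and all 8 were found among the 46078 genes of the count tables. They were followed in single long-term haematopoietic stem cells (HSCs) of mouse marrow from femurs and tibias, sorted by surface phenotype as CD150+, CD48-, cKit+ and Sca1+, with 1 library per cell. There were 6 groups of 96 cells each. They were LPS-treated cells of the p27 high, p27 low and p27 negative classes and control (Ctrl) cells of the p27 high, p27 low and p27 negative classes. LPS, lipopolysaccharide, is a component of the bacterial cell wall that sets off innate immune signalling. In the title of the series p27 serves as a marker of G0, that is of cells at rest. The strain, the age and the number of animals, the construct behind the marker, the LPS dose and the time after it do not appear in the labels used here. With no animal named, the cells of a group count as a single sample, and differences between groups carry no test.

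Red cells arise from HSCs through progenitors that also give rise to megakaryocytes, and a fraction of HSCs is known to carry low levels of erythroid and megakaryocytic transcripts before any change of surface phenotype. GATA1 and its cofactor FOG1, the product of Zfpm1, drive both lineages, KLF1 then activates red cell genes, and the erythropoietin receptor sustains survival of committed erythroid cells. MFSD2B exports sphingosine-1-phosphate from red cells and platelets, carbonic anhydrases 1 and 2 hydrate carbon dioxide inside red cells, and NF-E2 acts late in megakaryocytes and on the globin locus.

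Cells with at least 50000 gene reads were kept. That left 93 LPS p27 high, 90 LPS p27 low, 92 LPS p27 negative, 84 control p27 high, 93 control p27 low and 95 control p27 negative cells, 547 of 576 in all. Kept cells held 52163 to 1942773 gene reads, and the median cell held 284633, 287584 and 439918 reads in LPS p27 high, low and negative cells, against 229696, 224003 and 390369 in the control classes in the same order. Levels are given as CPM, the summed reads of a gene over the kept cells of a group per 1000000 summed gene reads. The 95% intervals on levels are exact Poisson intervals, and those on shares of cells are Clopper-Pearson intervals, so both cover counting error only. Reads were counted without molecular identifiers, so they are not independent molecules. Because shares of cells with a read depend on depth, each cell was thinned to 50000 reads for them. As a view of the spread inside a group, values were recomputed in cells numbered 1 to 32, 33 to 64 and 65 to 96 in the labels. These are sets of cells, not replicates, and what the shared numbers stand for is not given in the labels used here. Cells numbered 30, 31 and 32 fell below the read minimum in all 3 LPS groups, at 3405 to 12057 reads. Gene reads per spike-in read were 25.6, 23.9 and 44.8 in LPS p27 high, low and negative cells, against 9.37, 9.84 and 12.7 in the control classes, so all directions below are relative to total gene reads unless spike-in scaling is named.

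All 14 stem cell genes of the list were detected in every group and summed to 1332 to 3000 CPM. The globins, the defining products of red cells, summed to only 31.5, 11.7 and 19.8 CPM in LPS p27 high, low and negative cells, against 8.01, 8.12 and 13.9 CPM in the control classes, with 7 of 8 listed genes matched. Alas2, which starts haem synthesis in red cells, lay between 0.03 and 1.12 CPM, and Slc4a1, the main anion exchanger of the red cell membrane, had reads in 1 cell of LPS p27 high and in no other group. The cells thus held the early members with little of the late red cell products. The list of 19 megakaryocyte and platelet markers summed to 1520, 1801 and 1944 CPM under LPS, against 2009, 2799 and 2747 CPM in control. Of other lineages, the 13 mast cell, basophil and eosinophil markers differed most by treatment, at 99.5, 220 and 60.8 CPM in LPS p27 high, low and negative cells, against 2.81, 19.8 and 9.88 CPM in control. Their level under LPS rests largely on Gzmb in p27 low cells, at 188 CPM, a granzyme gene also known from T and NK cells, and 6 to 9 of the 13 had no read in a group, with Prss34, Cma1, Tpsb2 and Epx unread in all 6 groups. The part of this list in the LPS values below was not tested. Neutrophil and myeloid markers summed to 112 to 391 CPM, monocyte and macrophage markers to 12.6 to 63.4 CPM, B cell markers to 31.3 to 83.6 CPM and T and NK cell markers to 60.9 to 176.7 CPM over the 6 groups.

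The 8 genes differed widely in level, which is compared between genes per kilobase of exon. Car2 was the most abundant in each group, at 909 to 1705 CPM per kilobase, followed in 5 groups by Nfe2 at 128 to 300 CPM per kilobase. In control p27 negative cells Car1 came between them, at 308 CPM per kilobase against 253 for Nfe2. The other members ranged from 3.67 to 76.4 CPM per kilobase for Gata1, 4.41 to 33.8 for Klf1, 4.29 to 26.5 for Epor, 1.3 to 50.7 for Mfsd2b, 5.85 to 25.9 for Zfpm1 and 1.67 to 308 for Car1. Car2 and Nfe2 were read in 547 and 543 of the 547 cells. Gata1 was read in 296 cells, Klf1 in 88, Epor in 149, Mfsd2b in 327, Zfpm1 in 346 and Car1 in 89. Car2 and Nfe2 were thus read in nearly all of these HSCs, though Nfe2 at widely differing levels, and the other 6 were carried by part of the cells.

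**Figure D1:**
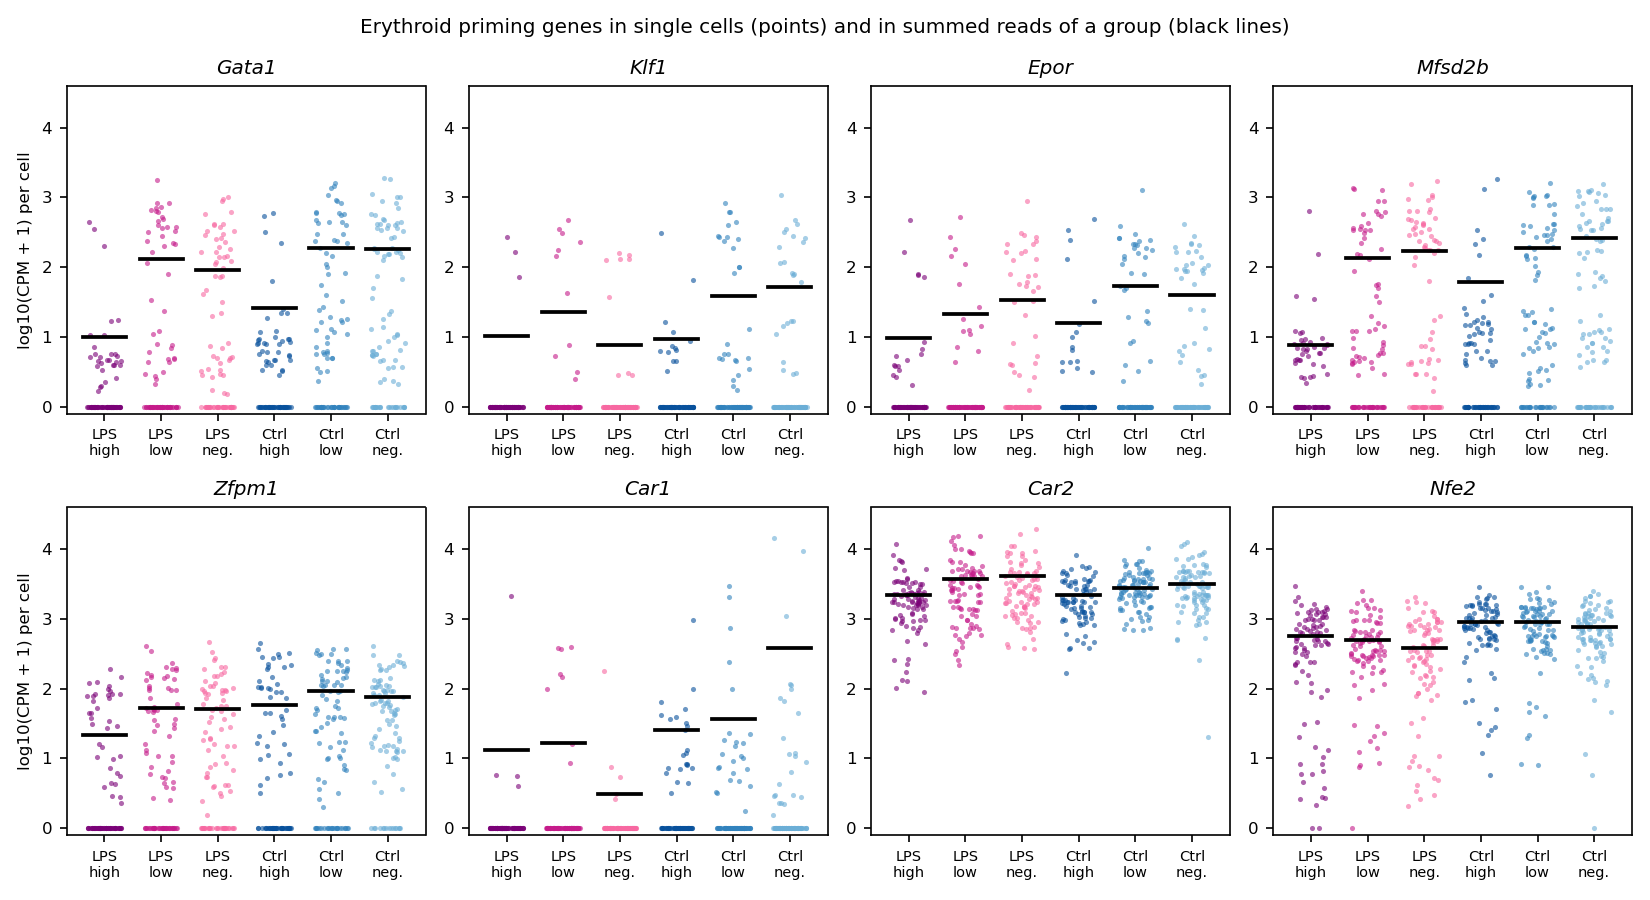
Level of each member in single kept cells as log10(CPM + 1), by group, with LPS groups left of control groups and p27 high, low and negative from left to right within each. Points are cells and black lines are the CPM of the summed reads of a group. Car2 forms a single cloud in every group, and Nfe2 has a main cloud with further cells far below it, more of them under LPS. Gata1 and Mfsd2b show an upper cloud that is nearly empty in p27 high cells, and Car1 rests on isolated cells.

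Gata1, on chromosome X (ENSMUSG00000031162, mm10 chrX:7959260-7978071, minus strand), encodes the zinc finger factor that drives erythroid and megakaryocytic genes. It had 8.95 CPM (95% interval 7.96 to 10.03) in LPS p27 high cells, 130 CPM in LPS p27 low cells and 91.1 CPM in LPS p27 negative cells. In control it had 24.8 CPM (22.73 to 26.96) in p27 high, 186 CPM in p27 low and 182 CPM in p27 negative cells. It was lowest in the p27 high class of both treatments, and p27 low and p27 negative cells overlapped over the sets of cells by number, at 59.2 to 227 and 61.5 to 125 CPM under LPS. The log2 fold of p27 high over negative cells was −3.21 under LPS (−4.95 to −1.52 over the sets) and −2.82 in control (−4.33 to −1.40), and over p27 low cells it was −3.72 and −2.86. At equal depth Gata1 was seen in 9.68%, 33.3% and 38.04% of LPS p27 high, low and negative cells, against 23.8%, 46.2% and 52.6% of control cells. Without thinning it was seen in 30, 43 and 54 LPS cells, against 40, 59 and 70 control cells.

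Most Gata1 reads of p27 high cells came from few cells. A level of 100 CPM, chosen after the distribution had been seen, was reached by 3 of 93 LPS p27 high cells (3.23%, 0.67 to 9.14), 24 of 90 LPS p27 low cells (26.7%) and 26 of 92 LPS p27 negative cells (28.3%, 19.4 to 38.6). In control it was reached by 4 of 84 p27 high cells (4.76%, 1.31 to 11.7), 28 of 93 p27 low cells (30.1%) and 37 of 95 p27 negative cells (38.9%, 29.1 to 49.5). The share was lowest in p27 high cells in both treatments. Cells of a group are not replicates, so the intervals give no test between classes. Among cells with any Gata1 read, the median was 3.65 CPM in LPS p27 high cells and 7.05 CPM in control p27 high cells, against 79.6 to 201 CPM in the other groups; whether such low values are the cells' own RNA was not tested.

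Zfpm1 (ENSMUSG00000049577, chr8:122282141-122337251, plus strand) encodes FOG1, the cofactor that binds GATA1. It had 20.5 CPM in LPS p27 high cells, 52.5 CPM in LPS p27 low cells and 50.9 CPM in LPS p27 negative cells, against 56.8, 90.7 and 75.01 CPM in control p27 high, p27 low and p27 negative cells. It was thus lowest in LPS p27 high cells, whose set range of 18.5 to 23.8 CPM lay below that of every other group. The log2 fold of p27 high over negative cells was −1.27 under LPS and −0.39 in control, and the difference between these folds was not tested. At equal depth 25.8%, 41.1% and 48.9% of LPS cells and 42.9%, 61.3% and 69.5% of control cells had a read.

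Klf1 (ENSMUSG00000054191, chr8:84901928-84905291, plus strand) encodes the zinc finger factor that activates the adult globin genes and other red cell genes. It had 9.16 CPM in LPS p27 high cells, 21.7 CPM in LPS p27 low cells and 6.75 CPM in LPS p27 negative cells, against 8.24, 37.8 and 51.7 CPM in the control classes. Control p27 low and p27 negative cells had the highest levels and overlapped over the sets, at 10.3 to 53.7 and 21.6 to 93.9 CPM. In p27 negative cells the log2 fold of LPS over control was −2.77 (−3.36 to −2.14 over the sets). Without the control p27 negative cell numbered 34, described below, the control level was 28.9 CPM and the fold −1.95. With the LPS p27 negative cell with the most Klf1 reads also left out, the fold was −2.50. The order of the 3 low groups rests on single cells. Without the cell with the most Klf1 reads the level was 3.91 CPM in LPS p27 high cells (cell 36) and 4.27 CPM in LPS p27 negative cells (cell 36), against 1.74 CPM in control p27 high cells (cell 4). At equal depth Klf1 was seen in 3.23%, 8.89% and 6.52% of LPS p27 high, low and negative cells, against 5.95%, 18.3% and 20% of control cells.

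Nfe2 (ENSMUSG00000058794, chr15:103248212-103258403, minus strand) encodes the large subunit of NF-E2, which pairs with small MAF proteins. It had 563 CPM in LPS p27 high cells, 507 CPM in LPS p27 low cells and 383 CPM in LPS p27 negative cells, against 896, 895 and 757 CPM in control p27 high, p27 low and p27 negative cells. Every LPS group lay below every control group, also over the sets, at 303 to 611 CPM against 678 to 1063 CPM. How many of all genes separate in this way was not computed. The log2 fold of LPS over control was −0.67 in p27 high cells (−0.94 to −0.55 over the sets), −0.82 in p27 low cells (−1.02 to −0.58) and −0.98 in p27 negative cells (−1.16 to −0.76), but per spike-in read it was 0.78, 0.46 and 0.84. Relative to the median of all tested genes it was −0.58, −0.67 and −0.87 with gene reads as the size, and −0.45, −0.53 and −0.74 with spike-in reads. Unlike Gata1, Nfe2 was slightly higher by gene reads in p27 high than in p27 negative cells, by 0.55 under LPS and 0.24 in control on the log2 scale, though per spike-in read both values were below 0, at −0.25 and −0.19. The share of cells with at least 5 reads was 80.6%, 90% and 86.96% in LPS p27 high, low and negative cells, against 97.6%, 98.9% and 96.8% in control cells. An Nfe2 level of 100 CPM was reached by 71 of 93, 77 of 90 and 70 of 92 LPS p27 high, low and negative cells. In control it was reached by 75 of 84, 85 of 93 and 90 of 95 cells, so part of the cells lay far below the main group.

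Epor (ENSMUSG00000006235, chr9:21958897-21963506, minus strand) encodes the receptor for erythropoietin. It had 8.53 CPM in LPS p27 high cells, 20.02 CPM in LPS p27 low cells and 32.8 CPM in LPS p27 negative cells, against 15.1, 52.8 and 38.4 CPM in the control classes. Single cells weigh on 3 of these levels. Without the cell with the most Epor reads the level was 4.603 CPM in LPS p27 high cells (cell 83) and 11.1 CPM in LPS p27 low cells (cell 5), against 9.69 CPM in control p27 high cells (cell 82). At equal depth a read was present in 5.38%, 11.1% and 25% of LPS p27 high, low and negative cells, against 9.52%, 25.8% and 25.3% of control cells. By share of cells LPS p27 low cells stood nearer to LPS p27 high cells, whereas control p27 low cells had the highest level of the 6 groups, and the log2 fold of LPS over control in p27 low cells was −1.36 (−2.48 to −0.61 over the sets). The log2 fold of p27 high over negative cells was −1.83 under LPS and −1.30 in control, and in control it ranged from −5.63 to 0.94 over the sets.

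Mfsd2b (ENSMUSG00000037336, chr12:4862440-4874359, minus strand) encodes the sphingosine-1-phosphate exporter of red cells and platelets. It had 6.70 CPM in LPS p27 high cells, 134 CPM in LPS p27 low cells and 167 CPM in LPS p27 negative cells. In control it had 60.1 CPM in p27 high, 186 CPM in p27 low and 261 CPM in p27 negative cells. Its log2 fold of −4.45 for LPS p27 high over LPS p27 negative cells (−6.27 to −3.23 over the sets) was the furthest from 0 of the 8 members in that comparison, and the control value was −2.10. In LPS p27 high cells 55.2% of the reads came from the cell numbered 78, without which the level was 3.02 CPM, and in control p27 high cells 65.7% came from the cell numbered 4, without which it was 21.1 CPM. Without these cells the folds over p27 negative cells were −5.39 under LPS and −3.57 in control. With the p27 negative cell with the most reads also left out, they were −5.32 and −3.44. Counts of cells showed the same split. A level of 100 CPM was reached by 2 of 93 LPS p27 high, 24 of 90 LPS p27 low and 37 of 92 LPS p27 negative cells, against 6 of 84, 32 of 93 and 35 of 95 control cells.

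Car1 (ENSMUSG00000027556, chr3:14766216-14808368, minus strand) encodes the carbonic anhydrase that is typical of red cells. It had 12.3 CPM in LPS p27 high cells, 15.4 CPM in LPS p27 low cells and 2.08 CPM in LPS p27 negative cells, against 24.6, 36.04 and 384 CPM in the control classes. These sums say little about a group, because 1 cell held 99.3%, 45.2% and 95.1% of the Car1 reads of LPS p27 high, low and negative cells, against 84.9%, 41.1% and 81.6% in control. The share of cells with a read was 2.15%, 6.67% and 2.17% of LPS p27 high, low and negative cells at equal depth, against 15.5%, 11.8% and 11.6% of control cells. With at least 5 reads it was 1.08%, 6.67% and 1.09% under LPS, against 9.52%, 7.53% and 10.5% in control. The control shares depend on the cell number. Of the cells numbered 33 to 42, Car1 was read without thinning in 0 of 10, 0 of 9 and 0 of 10 LPS p27 high, low and negative cells, against 10, 7 and 6 of 10 control cells, while of the cells numbered 1 to 32 it was read in 1 of 29, 4 of 28 and 2 of 28 LPS cells, against 2 of 23, 4 of 30 and 5 of 32 control cells. The control p27 negative cells numbered 34 and 37, at 14431 and 9525 CPM, stand among them, and most of the others held under 100 CPM. Whether the low values are the cells' own RNA was not tested. Without the cells numbered 33 to 42, a comparison added after seeing the data, the shares at equal depth were 2.41%, 7.41% and 2.44% under LPS, against 8.11%, 12.05% and 5.88% in control, and with at least 5 reads 1.205%, 7.41% and 1.22%, against 5.41%, 4.82% and 5.88%. The intervals of each class then overlapped between treatments, and at 5 reads the p27 low share was higher under LPS than in control.

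Car2 (ENSMUSG00000027562, chr3:14886273-14900770, plus strand) lies 77.9 kb from Car1 and encodes the broadly expressed carbonic anhydrase 2. It had 2202 CPM in LPS p27 high cells, 3693 CPM in LPS p27 low cells and 4131 CPM in LPS p27 negative cells, against 2225, 2800 and 3172 CPM in control p27 high, p27 low and p27 negative cells. The p27 high class was lowest under both treatments, with log2 folds over p27 negative cells of −0.91 (−1.22 to −0.43 over the sets) under LPS and −0.51 (−0.57 to −0.40) in control. Car2 was also the only member whose log2 fold of LPS over control was above 0 in p27 low and p27 negative cells by gene reads, at 0.40 (−0.27 to 0.66 over the sets) and 0.38 (0.16 to 0.86). In p27 high cells that value was −0.01 (−0.47 to 0.30), so the range lay above 0 only in p27 negative cells.

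**Figure D2:**
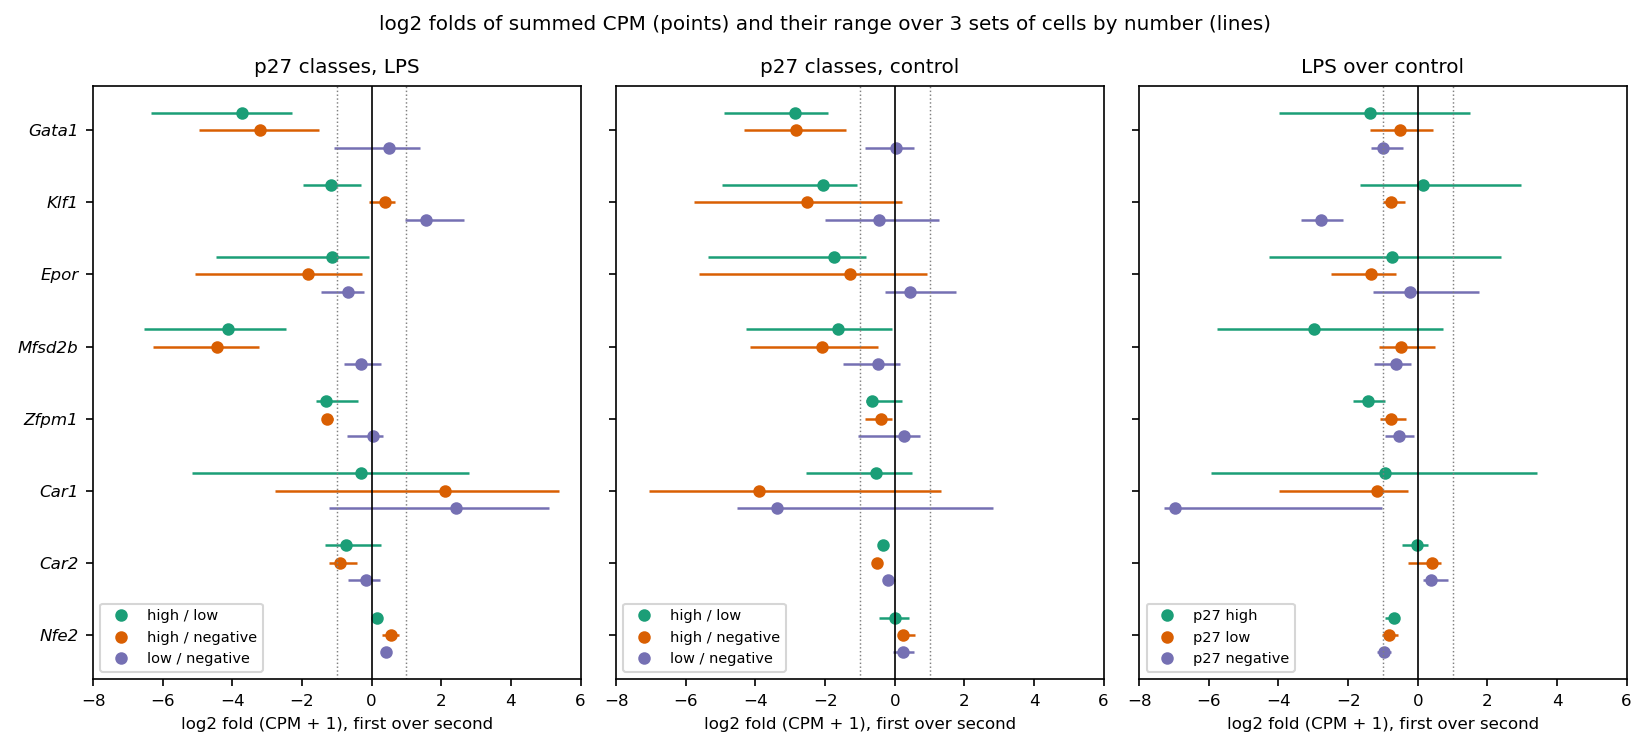
log2 folds of the 8 members after 1 CPM was added, as points, with lines for the lowest and highest value over the sets of cells numbered 1 to 32, 33 to 64 and 65 to 96. The left and middle panels compare p27 classes under LPS and in control, the right panel compares LPS with control in each class, and dotted lines mark −1 and 1. The lines of Gata1 and Mfsd2b stay left of 0 for p27 high cells in the left and middle panels, those of Nfe2 stay left of 0 in the right panel, and those of Car1 are long.

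Counted over the 8 members, p27 high cells had lower levels than p27 low and p27 negative cells. A log2 fold past 1 either way was used to describe size, since a single sample per group allows no test. Of LPS p27 high over LPS p27 low cells, 7 members were lower and 5 had a log2 fold of −1 or below (Gata1, Klf1, Epor, Mfsd2b and Zfpm1), where 7.93% of all 13967 tested genes did. Without the LPS p27 low cell numbered 5, which held the most reads of both genes in its group, Klf1 stood at −0.74 and Epor at −0.34. Such a removal lowers the level of that group only. With the cell of most reads left out of both groups, Klf1 stood at −1.79 and Epor at −1.11. Over LPS p27 negative cells 4 members did (Gata1, Epor, Mfsd2b and Zfpm1), against 8.7% of all genes, and 1 was at 1 or above (Car1), against 13.5% of all genes. Car1 stood at −1.50 without the LPS p27 high cell numbered 78, and at −0.02 without the cell of most reads in both groups. In control, p27 high over p27 low cells gave 4 members at −1 or below (Gata1, Klf1, Epor and Mfsd2b), against 9.34% of all genes. Over control p27 negative cells 5 members did, these 4 and Car1, against 10.1% of all genes. Epor stood at −0.95 without the control p27 negative cell numbered 34, and at −1.54 without the cell of most reads in both groups. The median log2 fold of the members in these comparisons was −1.15, −1.09, −1.14 and −1.70, beside medians of all genes of 0.06, 0.07, 0.00 and 0.05. With spike-in reads as the size the 4 medians were −1.08, −1.90, −1.20 and −2.10.

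A single cell bears on the control values. The control p27 high cell numbered 4 was the single control p27 high cell with reads of all 6 of the sparse members at equal depth, and it had 540 CPM of Gata1, 306 of Klf1, 243 of Epor, 1844 of Mfsd2b, 977 of Car1 and 2374 of Pf4, a platelet chemokine gene. Without it the level in control p27 high cells was 13.5 CPM of Gata1, 21.1 of Mfsd2b and 3.81 of Car1. In the set of cells numbered 1 to 32, which holds it, the median of the members for control p27 high over negative cells was 0.06, and without that cell the p27 high levels of that set were 7.40 CPM of Gata1, 11.5 of Mfsd2b and 7.88 of Epor, against 117, 192 and 12 CPM in p27 negative cells.

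The p27 low and p27 negative classes stood close together. Under LPS the members split into 5 higher and 3 lower in p27 low cells, with 2 at a log2 fold of 1 or above (Klf1 and Car1) against 9.09% of all genes, and a median of 0.22. Epor stood at −0.69, at −1.48 without the LPS p27 low cell numbered 5, and at −1.23 without the cell of most reads in both groups. In control they split into 4 and 4, with 1 at −1 or below (Car1) against 10.2% of all genes, and a median of −0.07. Without the control p27 negative cell numbered 34, Car1 stood at −0.99 and Klf1 turned to 0.38. With the cell of most reads left out of both groups, Car1 stood at −1.71 and Klf1 at 0.21. No member kept its sign over all sets in the control comparison, and 3 did under LPS (Klf1, Epor and Nfe2). How many of all genes keep their sign over the sets was not computed.

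Between treatments, 7 of 8 members were lower by gene reads in LPS than in control cells of each p27 class, where 55.1%, 58.8% and 58.3% of all genes were lower in p27 high, low and negative cells, while with spike-in reads as the size 3, 1 and 2 members were lower in p27 high, low and negative cells. The exception by gene reads was Klf1 in p27 high cells and Car2 in the other classes. At a log2 fold of −1 or below stood 3 members in p27 high cells (Gata1, Mfsd2b and Zfpm1) against 13.8% of all genes, 2 in p27 low cells (Epor and Car1) against 17.6%, and 2 in p27 negative cells (Klf1 and Car1) against 11.4%. Single cells bear on these counts. Without the control p27 high cell numbered 4 Gata1 stood at −0.54, Klf1 at 1.89 and Car1 at 1.46 in p27 high cells, and without the LPS p27 high cell with the most reads of each gene Klf1 stood at −0.91, Epor at −1.52 and Car1 at −4.56. With the cell of most reads left out of both groups, Gata1 stood at −0.98, Klf1 at 0.84, Epor at −0.93 and Car1 at −2.14. In p27 low cells Klf1 stood at −1.195 and Zfpm1 at −1.004 without the LPS cell with the most reads, and Car1 at −0.45 without the control one. With both left out, Klf1, Zfpm1 and Car1 stood at −1.03, −0.79 and −1.225. In p27 negative cells Gata1 and Nfe2, at −0.99 and −0.98, stood at −1.15 and −1.03 without the LPS cell with the most reads. With the control one also left out they stood at −0.99 and −1.03. The medians were −0.85, −0.77 and −0.81, beside −0.08, −0.15 and −0.11 for all genes. Spike-in scaling moved the median of all genes by 1.31, 1.14 and 1.69 in these 3 comparisons. It moved that median by −0.75 and −0.85 for LPS p27 high and low over negative cells, and by −0.37 and −0.31 for the same pairs in control. Relative to the median of all genes, the members' median was −0.77, −0.62 and −0.69 by gene reads and −0.73, −0.51 and −0.57 by spike-in reads. Of single members, Nfe2 and Zfpm1 kept their sign over the sets in all 3 classes, and 2, 5 and 7 members did so in p27 high, low and negative cells. The share of all genes that did so was not computed, so these counts stand without a background.

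**Figure D3:**
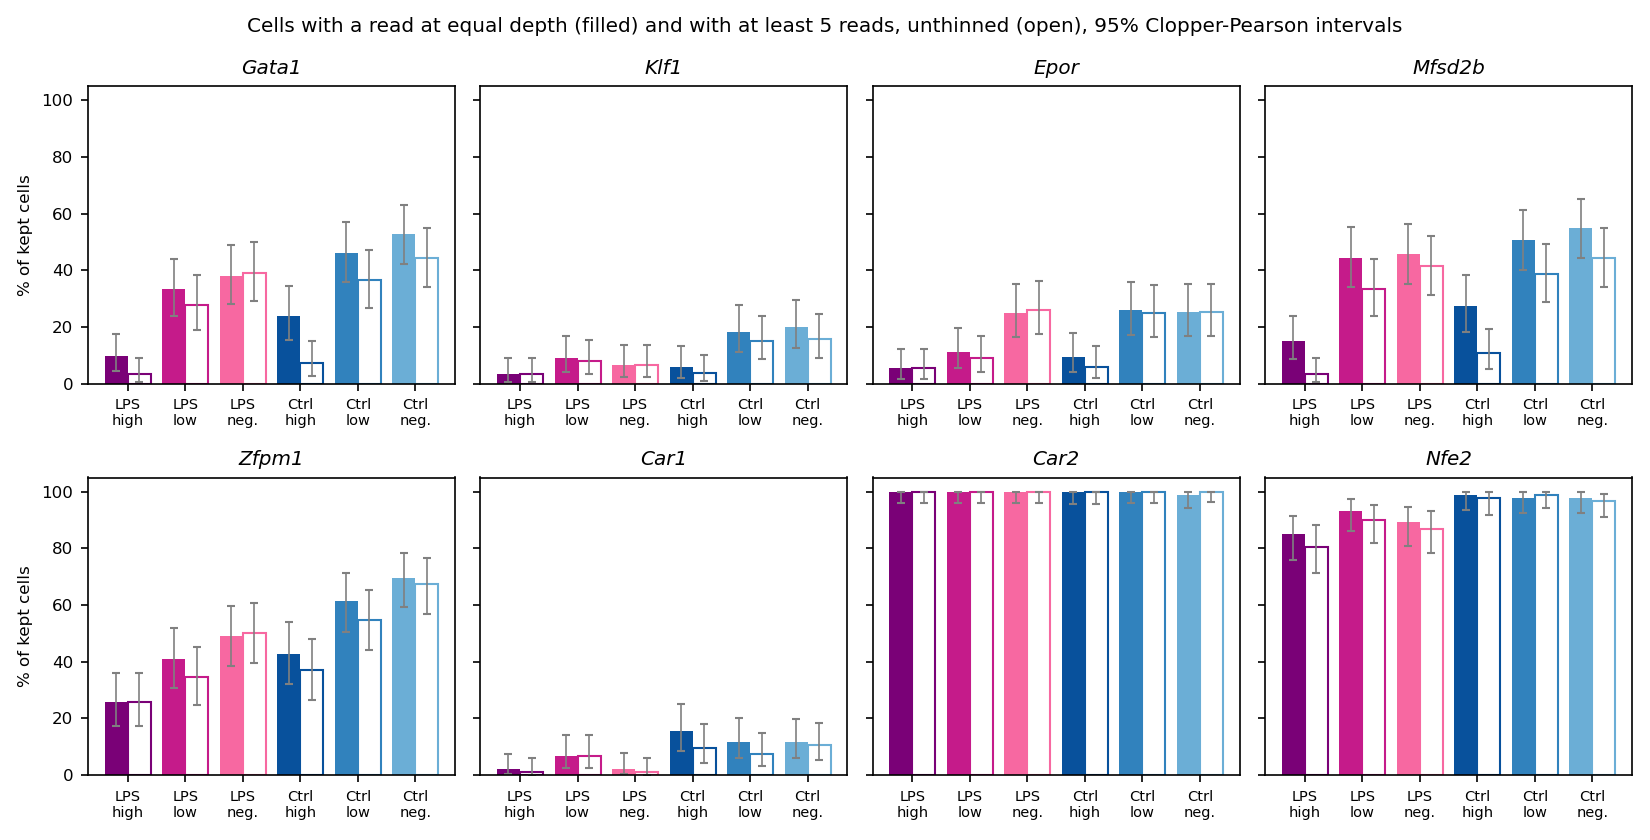
Percent of kept cells with a read of each member at equal depth (filled bars) and with at least 5 reads without thinning (open bars), by group, with LPS groups left of control groups. Error bars are 95% Clopper-Pearson intervals, which cover counting error only. Gata1, Epor, Mfsd2b and Zfpm1 are lowest in p27 high cells of each treatment by filled bars, and Car2 is at or near 100% in every group.

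Part of the cells held reads of several of the sparse members. What the shares of the single genes alone would give was not computed, so these counts do not show that the genes go together. Of Gata1, Klf1, Epor, Mfsd2b, Zfpm1 and Car1, a set of 6 formed after Car2 and Nfe2 had been seen in nearly all cells, at least 3 were read at equal depth in 2 of 93 LPS p27 high cells (2.15%, 0.26 to 7.55), 18 of 90 LPS p27 low cells (20%, 12.3 to 29.8) and 24 of 92 LPS p27 negative cells (26.1%, 17.5 to 36.3). In control the counts were 6 of 84 p27 high cells (7.14%, 2.67 to 14.9), 35 of 93 p27 low cells (37.6%, 27.8 to 48.3) and 46 of 95 p27 negative cells (48.4%, 38.04 to 58.9). The share was lowest in p27 high cells within each treatment, and in each class it was lower under LPS than in control. The intervals cover counting error only and give no test between groups. Without Car1, at least 3 of the other 5 were read in 2, 17 and 24 LPS p27 high, low and negative cells, against 4, 32 and 45 control cells. None of the 6 was read in 47 LPS p27 high, 27 LPS p27 low and 22 LPS p27 negative cells, against 19, 10 and 10 control cells.

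**Figure D4:**
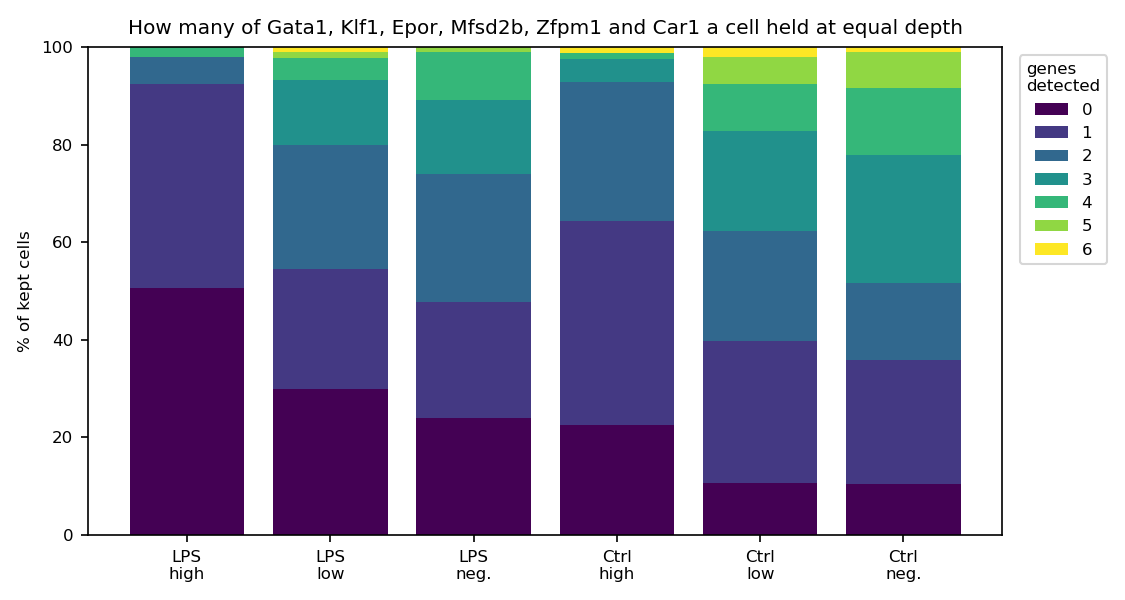
Percent of kept cells that held 0 to 6 of the sparse members Gata1, Klf1, Epor, Mfsd2b, Zfpm1 and Car1 after thinning to 50000 reads, by group, with LPS groups left of control groups. Cells with at least 3 make up 2.15%, 20% and 26.1% of LPS p27 high, low and negative cells, against 7.14%, 37.6% and 48.4% in control.

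Gata1 and Mfsd2b went together most closely. At equal depth Mfsd2b was read in 26 of 35 LPS p27 negative cells with Gata1 and in 16 of 57 without it, and in 39 of 50 control p27 negative cells with Gata1 and 13 of 45 without it. In control p27 low cells the counts were 31 of 43 and 16 of 50, and in control p27 high cells 8 of 20 and 15 of 64. In those control p27 high cells the other sparse members were read no more often with Gata1. Klf1, Epor, Zfpm1 and Car1 were read in 1, 1, 7 and 3 of the 20 cells with it, against 4, 7, 29 and 10 of the 64 without it. Over cells within a group, Pearson's r of log2(CPM + 1) between the 2 genes averaged 0.51 over the 6 groups (0.42 to 0.61). The pairs next in order were Klf1 with Car1 at 0.32 (0.02 to 0.59), Gata1 with Epor at 0.26 (0.16 to 0.34), Gata1 with Car1 at 0.25 (−0.03 to 0.49), Klf1 with Mfsd2b at 0.24 (0.12 to 0.34) and Gata1 with Klf1 at 0.24 (0.07 to 0.33). The pairs with Car1 include the control cells numbered 33 to 42. Car2 and Nfe2 had means between −0.09 and 0.11 with every other member. Each r is over 84 to 95 cells that share a group and its sort, and most values of the sparse members are 0, so these are descriptions only.

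**Figure D5:**
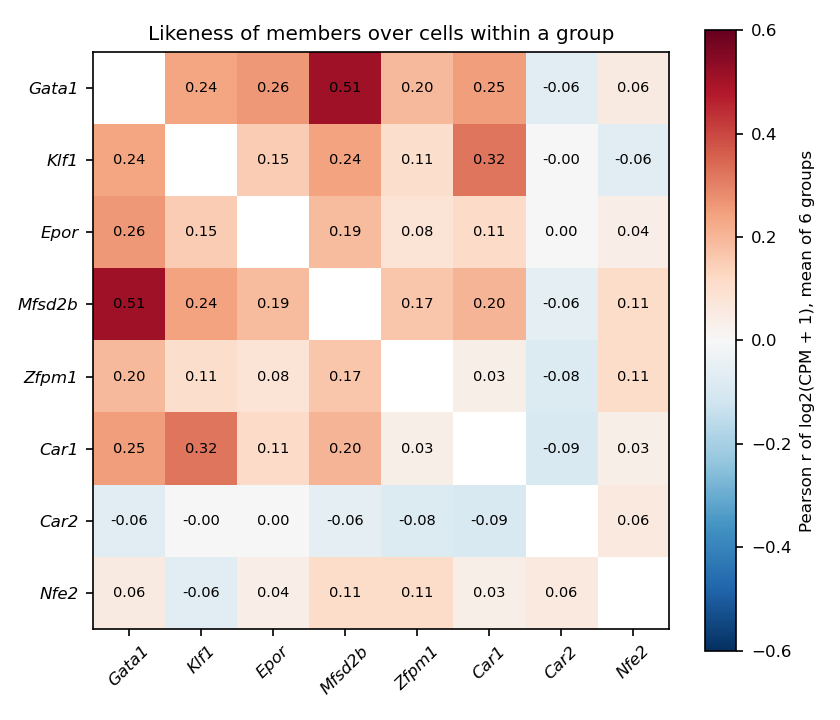
Pearson's r of log2(CPM + 1) over the cells of a group for each pair of members, as the mean of the 6 groups. Gata1 with Mfsd2b has the highest value, 0.51, and the rows of Car2 and Nfe2 lie near 0.

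Among 9727 genes read in at least 20% of the kept cells, those whose levels went most like the sum of the 8 members were Tuba8 (mean r of 0.42), Aqp1 (0.41), Itga2b (0.38), Pfn1 (0.38), Icam4 (0.36), Rps24-ps2 (0.36), Apoe (0.35), Gp5 (0.35), Plxnc1 (0.34) and Gp1bb (0.34), over the cells of 6 groups. Aqp1 encodes a water channel and Icam4 an adhesion molecule of the red cell membrane, while Itga2b, Gp5 and Gp1bb encode platelet surface proteins. For 7 of the members the nearest genes were Pf4 (0.38) for Gata1, Tuba8 (0.43) and Itga2b (0.42) for Mfsd2b, Adgrg1 (0.29) for Nfe2, E2f8 (0.25) for Klf1, Aqp1 (0.25) for Car1, Gp1bb (0.23) for Epor and Paip2 (0.16) for Car2. The sum of the members was also set against the mean log2(CPM + 1) of lists, as the mean r of the 6 groups with its range. It was 0.51 (0.36 to 0.66) for the red cell membrane list, 0.43 (0.25 to 0.57) for the megakaryocyte and platelet list and 0.37 (0.20 to 0.50) for the haem list. For 30 G2/M genes it was 0.16 (−0.001 to 0.28), and for the stem cell list −0.16 (−0.43 to 0.14), so the sign differed between groups. With the log10 of a cell's gene reads it was −0.04 (−0.10 to 0.02).

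Promoter sequence of 5 members was found in RefSeq (GRCm38.p6, 250 bases before to 50 after the start given there). It was searched on both strands for the GATA-type hexamers AGATAA, or with its last base changed AGATAG, and likewise for TGATAA, or with its last base changed TGATAG, which 29.8% of 32851 promoters hold. Klf1 and Epor held 1 each, and Gata1, Mfsd2b and Zfpm1 held none in this window. The Gata1 window lies inside the gene as annotated here, chrX:7959260-7978071 on the minus strand, and not at its outermost start. The sequence at that outermost start was not searched. The promoters of Klf1 (chr8:84901732-84902031, plus strand), Epor (chr9:21963527-21963826, minus strand) and Gata1 (chrX:7967861-7968160, minus strand) are shown as examples. In p27 high over p27 low cells 7 of the 8 members were lower in each treatment, all 5 with a sequence among them. Of all genes 45.2% were lower under LPS and 48.9% in control. A link between these sequences and the levels was not tested. The promoters of Mfsd2b and Zfpm1, without the hexamer, are not shown. Capitals mark the hexamer, written as its reverse complement, which starts 80 bases before the RefSeq start in Klf1 and 54 before it in Epor. A match is only a description of these letters.
Klf1: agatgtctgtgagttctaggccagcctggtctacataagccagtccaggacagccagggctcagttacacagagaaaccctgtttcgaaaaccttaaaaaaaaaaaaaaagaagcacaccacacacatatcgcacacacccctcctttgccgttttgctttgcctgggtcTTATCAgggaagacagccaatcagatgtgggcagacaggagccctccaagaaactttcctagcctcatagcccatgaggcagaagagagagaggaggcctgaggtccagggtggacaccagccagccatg
Epor: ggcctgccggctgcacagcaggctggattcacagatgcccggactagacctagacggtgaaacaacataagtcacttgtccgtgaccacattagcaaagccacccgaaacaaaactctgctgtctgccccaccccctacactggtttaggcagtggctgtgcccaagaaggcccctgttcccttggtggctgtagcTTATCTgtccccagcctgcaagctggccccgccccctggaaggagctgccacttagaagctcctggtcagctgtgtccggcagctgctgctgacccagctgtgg
Gata1: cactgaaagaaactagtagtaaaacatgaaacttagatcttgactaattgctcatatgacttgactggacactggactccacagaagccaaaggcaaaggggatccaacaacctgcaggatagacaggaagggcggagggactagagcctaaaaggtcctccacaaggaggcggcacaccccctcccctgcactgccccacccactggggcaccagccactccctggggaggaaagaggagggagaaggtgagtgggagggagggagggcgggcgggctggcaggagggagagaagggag
The CACCC-type motif CCNCNCCC, present in 49.5% of all promoters on either strand, was found 3 times in the Gata1 window and 4 times in that of Epor, where pairs of matches overlap, and not in that of Klf1.

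Most listed genes of the red cell membrane also had lower levels in p27 high than in p27 negative cells. Of 21 red cell membrane genes, 13 had a mean of at least 1 CPM. Of these 12 were lower and 1 higher in control p27 high than in control p27 negative cells, 8 of them at −1 or below, with a median of −1.71, where 46.5% of all genes were lower and 10.1% at −1 or below. Under LPS 7 were lower, 3 higher and the rest without a difference, 6 at −1 or below, with a median of −0.91, where 45.1% of all genes were lower and 8.7% at −1 or below. Aqp1 had 9.58 CPM in LPS p27 high and 25.4 CPM in LPS p27 negative cells, and 16.4 CPM in control p27 high and 74.2 CPM in control p27 negative cells. Icam4 had 19.8 and 46.7 CPM under LPS and 12.2 and 33.7 CPM in control for the same classes. Of the 17 megakaryocyte and platelet genes at that level, 12 were lower and 5 higher under LPS, with a median of −1.11. There 9 stood at −1 or below and 3 at 1 or above, against 13.5% of all genes at 1 or above. In control 13 were lower and 4 higher, 8 at −1 or below and 0 at 1 or above, with a median of −0.70. Pf4, 1 of the lower genes, had 67.6 CPM in LPS p27 high and 471 CPM in LPS p27 negative cells. In control it had 87.8 CPM in p27 high and 687 CPM in p27 negative cells. The G2/M list, which marks dividing cells, summed to 313 CPM in LPS p27 high and 6828 CPM in LPS p27 negative cells, and to 295 and 7704 CPM in control, yet was at 213 CPM in LPS p27 low and 515 CPM in control p27 low cells. The part of these lists in the members' levels was not tested.

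Genes of haem synthesis and iron had medians near that of all genes between p27 classes. Of 15 such genes at that level, 9 were lower and 6 higher in p27 high than in p27 negative cells under LPS and in control alike, with medians of −0.11 and −0.09. Uros, which makes uroporphyrinogen III, had 7.12 CPM in LPS p27 high and 25.2 CPM in LPS p27 negative cells. Alad, which makes porphobilinogen, had 139 and 218 CPM under LPS and 166 and 275 CPM in control for these classes. Between treatments 12, 11 and 14 of the 15 were lower in LPS p27 high, low and negative cells than in control, with medians of −0.63, −0.45 and −0.45, where 55.1%, 58.8% and 58.3% of all genes were lower. With spike-in reads as the size 2, 3 and 0 were lower, where the median log2 fold of all genes was 1.23, 0.99 and 1.57.

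Of 17 partners of the transcription factors, 14, 12 and 14 were lower by gene reads in LPS p27 high, low and negative cells than in control. Of all genes 55.1%, 58.8% and 58.3% were lower in these comparisons, so the p27 low count stands near the background. By spike-in reads 2, 0 and 0 of the partners were lower, where the median log2 fold of all genes was 1.23, 0.99 and 1.57. By gene reads 1 gene at a log2 fold of 1 or above stood out against them in all 3 classes. This was Spi1, which encodes PU.1, a myeloid factor known to antagonize GATA1. It had 364 CPM in LPS p27 high and 168 CPM in control p27 high cells, 464 CPM in LPS p27 low and 220 CPM in control p27 low cells, and 260 CPM in LPS p27 negative and 125 CPM in control p27 negative cells. Cbfa2t3, a corepressor found in GATA1 complexes, went the other way, at 47.1 CPM in LPS p27 negative and 153 CPM in control p27 negative cells and at 98.3 CPM in LPS p27 low and 234 CPM in control p27 low cells. Gfi1b, a repressor needed in both lineages, had 46.6 CPM in LPS p27 high and 139 CPM in control p27 high cells. Of the NF-E2 relatives, Mafg, a small MAF partner, had 32 CPM in LPS p27 low and 87.9 CPM in control p27 low cells, and Bach1, a haem-binding relative that shares the MAF partners, had 4.98 CPM in LPS p27 negative and 15.8 CPM in control p27 negative cells.

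Most listed genes downstream of the erythropoietin receptor were higher under LPS. Of 12, 8, 10 and 9 were higher by gene reads in LPS p27 high, low and negative cells than in control, where 55.1%, 58.8% and 58.3% of all genes were lower. At a log2 fold of 1 or above stood 3, 4 and 3, against 9.7%, 9.97% and 7.62% of all genes. By spike-in reads 12 were higher in each class, but the median log2 fold of all genes was then 1.23, 0.99 and 1.57. Socs3, a feedback inhibitor of cytokine receptors, had 100 CPM in LPS p27 high, 117 CPM in LPS p27 low and 62.1 CPM in LPS p27 negative cells, against 14.8, 0.197 and 2.19 CPM in the control classes. Cish, a feedback inhibitor induced by STAT5, had 278, 192 and 247 CPM under LPS, against 264, 135 and 36.6 CPM in control. Tfrc, the transferrin receptor that supplies iron, had 44.5, 65.5 and 32.4 CPM under LPS, against 5.57, 28.2 and 23.2 CPM in control. Many cytokine receptors use the same inhibitors, and which of them bears on these values was not tested.

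Around Mfsd2b in the sphingosine-1-phosphate list, 7, 8 and 9 of 10 genes were lower by gene reads in LPS p27 high, low and negative cells than in control, where 55.1%, 58.8% and 58.3% of all genes were. By spike-in reads 1, 3 and 1 were lower, where the median log2 fold of all genes was 1.23, 0.99 and 1.57. S1pr4, a receptor of the lipid, had 48.1 CPM in LPS p27 low and 200 CPM in control p27 low cells, and 49.9 CPM in LPS p27 negative and 122 CPM in control p27 negative cells. Spns2, which exports the lipid from endothelial cells, had 129 CPM in LPS p27 high and 203 CPM in control p27 high cells. Sphk1, a kinase that makes the lipid, was read mainly in control p27 negative cells, at 13.5 CPM from 5 cells.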

How the data were processed

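RNA of 576 single cells was measured by the protocol of Picelli and colleagues with Nextera XT libraries, per the labels. The authors deposited 2 tables of raw read counts per gene, 1 per treatment, with no normalization. The submitters' processing notes name GSNAP, HTSeq 0.6.0 and the mm10 genome, and strand use is not given in the sources used here. HTSeq summary lines, 63.8% of all reads, and 92 spike-in RNAs (2.06%) stayed out of gene totals.

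Symbols, coordinates and exon lengths came from GENCODE M21 by gene ID. No member shares exon bases with another gene by that annotation. Reads were summed per group with pandas 2.3.3 and Python 3.11.15, and a log2 fold is the difference of log2(CPM + 1). A gene was tested for background where its mean over the groups was at least 1 CPM. Thinning was random with a fixed seed. No doublet calling, test or standard error was made. The fold procedure was run on simulated Poisson counts around fixed group means. That simulation holds no variation between cells, so it does not bear on folds that rest on single cells.

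The members and lists were chosen with earlier results of these data known. Named genes were all members, up to 4 genes per list with the largest absolute log2 fold at 10 CPM or more in the higher group of a comparison, and the genes most like the members over cells. Genes given across further groups, and Alas2 and Slc4a1, were named as markers. Alternatives were other scalings, among them TMM factors from edgeR 4.0.16, other cell filters, other added CPM, single sets of cells by number and leaving out top cells. A likeness value for Zfpm1 is not reported here.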

Additional observations from a re-analysis of the deposited data

Results flagged for a closer look

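Car1 had opposite signs under the treatments when p27 classes were compared. The log2 fold of p27 high over p27 negative cells was 2.11 under LPS and −3.91 in control, and that of p27 low over p27 negative cells was 2.41 under LPS and −3.38 in control. The difference between treatments was not tested. Both folds rest on few cells. A single cell, the one numbered 34, held 81.6% of the 15966 Car1 reads of control p27 negative cells, at 14430 CPM of Car1, 1083 of Klf1, 1023 of Gata1 and 887 of Mki67, a gene of dividing cells, and without it the group had 72.4 CPM of Car1. In LPS p27 high cells 1 cell held 99.3% of the Car1 reads, and without the top cell of each group the LPS fold of p27 high over negative cells was −0.02. Without cell 34 the control fold of p27 low over negative cells was −0.99, and with the p27 low cell of most reads also left out it was −1.71.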

How the results depend on the processing

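The median of the 8 members stayed within its spread over the sets of cells in 129 of 144 recomputations, and a member's log2 fold in 1030 of 1152. The spread is the standard deviation of the 3 sets, and these sets are themselves among the recomputations. A minimum of 1000 genes left all 547 kept cells in place, so its values could not differ. The spread is also wide for genes that rest on single cells, such as Car1, so these counts are no measure of robustness. Shares of cells stayed within their intervals in 87 of 150 recomputations at another depth or read minimum or, for Car1, without the cells numbered 33 to 42. The median moved with cells numbered 1 to 32 to −3.23 for LPS p27 high over LPS p27 low cells and −2.83 for LPS over control in p27 high cells, and turned to 0.057 for control p27 high over negative cells. With cells 33 to 64 it was −1.52 and −0.24 for LPS p27 high and low over LPS p27 negative cells, −2.06 for control p27 high over low cells and −1.20 for LPS over control in p27 negative cells, and with cells 65 to 96 it was −1.09 for LPS over control in p27 low cells. With spike-in reads as the size it was −1.90 and −0.68 for LPS p27 high and low over LPS p27 negative cells, and 0.48 and 1.005 for LPS over control in p27 low and negative cells. For control p27 high over low cells it was −2.23 when each gene lost the cell with its highest CPM, −2.16 when it lost the cell with its most reads, and −2.61 without the control p27 high cell 4 and control p27 negative cell 34. The last 2 alternatives, and the one on Car1, were chosen after seeing the data.

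The number of members past a log2 fold of 1 was 3 with 5 CPM added for LPS p27 high over low cells, beside 5 as reported. For LPS p27 low over negative cells it was 4 by spike-in reads and 1 in cells 65 to 96, beside 2. In cells 1 to 32 it was 2 for control p27 high over low and over negative cells, beside 4 and 5. For control p27 low over negative cells it was 2, 3 and 2 in the sets of cells and 0 without the cells numbered 4 and 34, beside 1. For LPS over control in p27 high cells it was 5 without the cells of highest CPM, 6 in cells 1 to 32 and 5 in cells 33 to 64, beside 3. In p27 low cells it was 1 by spike-in reads, 0 in cells 1 to 32 and 6 in cells 65 to 96, beside 2. In p27 negative cells it was 4 without mitochondrially encoded genes, 6 by spike-in reads, 4 without the cells of highest CPM, 4 in cells 1 to 32 and 5 in cells 33 to 64, beside 2.

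Car1 for LPS p27 high over negative cells turned to −1.51 in cells with at least 200000 reads, −0.016 without the cell of highest CPM or of most reads, −0.079 in cells 1 to 32 and −2.78 in cells 33 to 64. Car1 for LPS p27 low over negative cells turned to −1.23 in cells 33 to 64. For control p27 high over negative cells, cells 1 to 32 gave 0.20 for Klf1, 0.94 for Epor and 1.33 for Car1, and cells 65 to 96 gave 0.93 for Car1. For control p27 low over negative cells Car1 was 0.83 in cells 1 to 32 and 2.82 in cells 65 to 96. For LPS over control in p27 high cells, cells 65 to 96 gave 1.49 for Gata1 and 0.72 for Mfsd2b, and by spike-in reads Car1 was 0.051 in p27 low cells. The cause was not tested. No paired analysis was possible because no result comes from a test. What the cell numbers that the groups share stand for is not given in the labels used here, and cells of the same numbers fell below the read minimum together under LPS and held Car1 reads together in control.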

Other observations

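Car13, a cytosolic carbonic anhydrase gene (chr3:14641727-14663002, plus strand, mm10), lies in the same cluster as Car1, Car3 and Car2. It had 121 CPM in LPS p27 high, 186 CPM in LPS p27 low and 152 CPM in LPS p27 negative cells, against 30.6, 14.3 and 17.2 CPM in the control classes. The groups of the treatments did not overlap over the sets of cells by number, at 89.99 to 234 CPM under LPS and 8.90 to 41.2 CPM in control. How many of all genes separate in this way was not computed. At least 5 reads were present in 26.9%, 38.9% and 48.9% of LPS p27 high, low and negative cells, against 9.52%, 7.53% and 12.6% of control cells. These shares are without thinning, and the median cell of each class held more reads under LPS. The log2 fold of LPS over control was 1.95, 3.61 and 3.07 in p27 high, low and negative cells, while that of its neighbour Car2 was −0.01, 0.40 and 0.38.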
